A study of Mus musculus with 25 samples.

Results

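The comparison described here is between agonist-treated hearts of 2 genotypes: 5 hearts of mice labelled MCT1KO and 3 hearts of wild-type (WT) mice, all labelled as treated with Ang/PE. They were chosen by their sample titles and make up 8 of the 25 hearts of the series. The other 17 hearts were 6 WT and 4 MCT1KO hearts labelled saline and 4 WT and 3 MCT1KO hearts labelled no pump. Ang/PE is given in the series description as a mix of neurohormonal agonists that causes myocardial hypertrophy, with lactate metabolism during that growth as the stated question. The labels give the tissue as whole heart, the genotype and the treatment. Sex, age, strain, dose, infusion time, hour of collection, and the way Slc16a1 was disrupted (the Cre driver or the cell type) are not given in the sources used here. Each title stands for its own heart, so p-values below measure the spread between hearts.

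MCT1, encoded by Slc16a1, is a proton-coupled transporter that moves lactate, pyruvate and ketone bodies across membranes, and needs the chaperone basigin (Bsg) to reach the cell surface. The heart oxidises fatty acids and lactate at rest. Under hypertrophic agonists it re-expresses fetal genes such as natriuretic peptides and the slow myosin heavy chain, and fibroblasts lay down collagen-rich matrix. Cardiac cells also keep a circadian clock, in which the activators Arntl (BMAL1), Clock and Npas2 drive the repressors of the Per, Cry and Nr1d families and the output factors Dbp, Tef and Hlf.

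The gene named in the genotype label, Slc16a1, comes first. It was at 217, 223 and 203 CPM (read counts scaled to library size) in WT hearts 1 to 3 and 209, 162, 192, 213 and 173 CPM in MCT1KO hearts 1 to 5. The groups overlapped, with means of 214 ± 10.6 CPM (SD, n = 3) and 189.8 ± 21.9 CPM (SD, n = 5). The log2 fold change, always given as MCT1KO minus WT, was -0.18 with a standard error (SE) of 0.15 and an adjusted p of 0.807 in edgeR's quasi-likelihood test. A loss of Slc16a1 RNA was thus not detected in the hearts labelled MCT1KO under Ang/PE. A gene count cannot show whether part of the gene is missing or whether the protein is made, so the direction of each difference below rests on the genotype label.

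Across the genome, no gene passed the test of a genotype difference under Ang/PE. Of 17682 genes tested with edgeR, 0 had an adjusted p below 0.05, and the smallest adjusted p was 0.692. Without adjustment, 1223 genes (6.92%) had a p below 0.05, of which 706 (3.99% of the genes tested) were higher and 517 (2.92%) lower in MCT1KO. The CPM of the 5 MCT1KO hearts lay wholly above those of the 3 WT hearts for 530 genes (3.00%) and wholly below for 372 (2.10%). DESeq2, run as an alternative, called 4 genes, all with higher fitted values in MCT1KO. Of these, Uty, Eif2s3y and Kdm5d are Y-linked and had counts in MCT1KO heart 5 and in none of the other 7 hearts. The remaining call, Col22a1, a collagen of tissue junctions, is described with the matrix genes. The gene groups below are therefore described by their values, by how many members had an unadjusted p below 0.05, and by their median log2 fold change, which over all genes tested was 0.004.

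**Figure D1:**
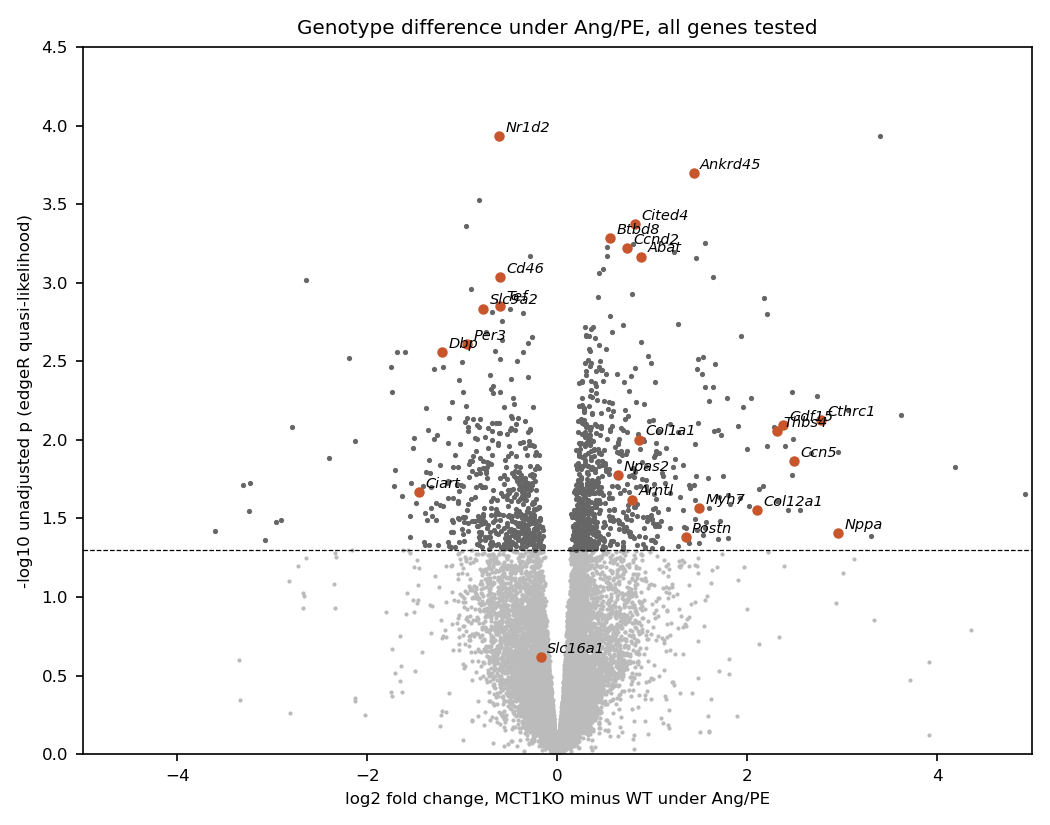
Log2 fold change between MCT1KO and WT hearts under Ang/PE (x axis) against -log10 of the unadjusted p from edgeR (y axis) for the genes tested, with 24 genes discussed in the text marked. The dashed line is an unadjusted p of 0.05, 7 genes lie outside the x limits of -5 and 5, and no gene reached an adjusted p below 0.05.

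Library depth was 14.2 to 16.6 M counts in WT and 12.2 to 16.6 M counts in MCT1KO hearts (exact two-sided permutation test over the hearts, p = 0.25). Mitochondrially encoded genes took 12.6% to 15.1% of counts in WT and 8.87% to 13.5% in MCT1KO hearts (exact permutation p = 0.107; 56 splits, smallest possible p 0.0357; 4 such measures gave Benjamini-Hochberg values of at least 0.333). The hearts were not alike within genotypes. MCT1KO heart 2 had the lowest mean correlation with the other hearts (0.97) and the lowest mitochondrial share, and it lay farthest along the axis of greatest variance (27.9% of the total), followed on the same side by MCT1KO heart 5. The genes with the largest weights on that axis included Cthrc1, Col11a1, Col22a1, Ccn5, Nppa, Comp and Thbs4. WT heart 3 stood apart on the next axis. Xist was at 548 to 759 CPM in 7 hearts and at 0.3 CPM in MCT1KO heart 5, where the Y-linked Ddx3y was at 66.7 CPM, so sex was not balanced between the genotypes. Nor was it in the other treatments: Ddx3y was above Xist in 5 of 6 WT and 1 of 4 MCT1KO saline hearts, and in 2 of 4 WT and 3 of 3 MCT1KO hearts without a pump. The part of sex in the genotype contrasts of those treatments, and in the differences from them, was not tested beyond a fit with Xist as covariate.

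Of 19 clock genes, 9 were lower and 2 higher in MCT1KO at an unadjusted p below 0.05, and 0 passed adjustment. Over all genes tested, 2.92% were lower and 3.99% higher at that level. The median log2 fold change of the clock genes was -0.34. Nr1d2, which encodes the repressor REV-ERBβ, had the smallest p of all genes tested under Ang/PE (adjusted p = 0.692). It was at 159, 142 and 123 CPM in WT hearts and at 113, 80.6, 89.8, 81.4 and 98.2 CPM in MCT1KO hearts. All 5 MCT1KO hearts were below all 3 WT hearts, and the log2 fold change was -0.61 (SE 0.13).

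The repressor Per3 was at 61.4, 46.1 and 30.9 CPM in WT and at 23.3, 25, 28.2, 19.3 and 24 CPM in MCT1KO hearts, again without overlap, for a log2 fold change of -0.95 (SE 0.28). Ciart, a repressor of BMAL1 and CLOCK, was at 13.7, 5.52 and 6.0 CPM in WT and 4.21, 2.79, 2.23, 2.99 and 3.24 CPM in MCT1KO hearts. Its groups did not overlap either, and its log2 fold change was -1.46 (SE 0.58). Per2 had a log2 fold change of -0.86 (SE 0.34) and Cry2, of the cryptochrome repressors, of -0.49 (SE 0.15), each with overlapping groups.

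Among the output factors, Dbp was at 88.3, 53.7 and 37.2 CPM in WT and 37.6, 25.2, 27.1, 11.6 and 27.9 CPM in MCT1KO hearts. MCT1KO heart 1 exceeded WT heart 3 by less than 1 CPM, and the log2 fold change was -1.21 (SE 0.36). Tef was at 197, 147 and 111 CPM against 114, 82.3, 106, 105 and 91.5 CPM, with a log2 fold change of -0.60 (SE 0.17). Hlf, the last member of the same PAR-bZIP family, had a log2 fold change of -0.59 (SE 0.28), and the nuclear receptor Rora one of -0.21 (SE 0.09). The activators pointed the other way. Arntl was at 9.36, 18 and 22.3 CPM in WT and at 21.1, 31.2, 27.5, 32 and 30.6 CPM in MCT1KO hearts, for a log2 fold change of 0.79 (SE 0.32). Npas2 had one of 0.63 (SE 0.25), whereas its partner Clock was at similar levels (0.10, SE 0.10).

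WT heart 1 carried the highest Dbp, Tef, Per2, Per3 and Ciart and the lowest Arntl of the 8 hearts. Without it, 5 clock genes were lower and 0 higher at an unadjusted p below 0.05, with a median log2 fold change of -0.30. Leaving out MCT1KO heart 2 gave 6 lower and 2 higher, and leaving out WT heart 2 moved the median to -0.49. The hour at which each heart was collected was not given in the sources used here, and its part in these values was not tested.

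The other treatments gave other values for the clock genes. In saline hearts the median log2 fold change of the 19 genes was 0.05, with 0 higher and 1 lower at an unadjusted p below 0.05, where 8.43% of the genes tested were higher and 8.62% lower. In hearts without a pump it was 0.30, with 4 higher and 0 lower, against 5.46% and 6.74% of the genes tested. In the test of the difference between the genotype contrasts, Ang/PE minus no pump, 12 clock genes were lower and 2 higher at an unadjusted p below 0.05, where 2.34% of the genes tested were lower and 3.09% higher. For Ang/PE minus saline, 7 were lower and 1 higher, against 6.05% and 7.48% of the genes tested. None of these passed adjustment over all genes. Per3 was among the 3 genes with the smallest p on the lower side of the no-pump difference (log2 difference -1.84, SE 0.40, adjusted p = 0.89). DESeq2 called 2 genes in this difference, namely Per3 (adjusted p = 0.0442) and the Y-linked Uty.

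**Figure D2:**
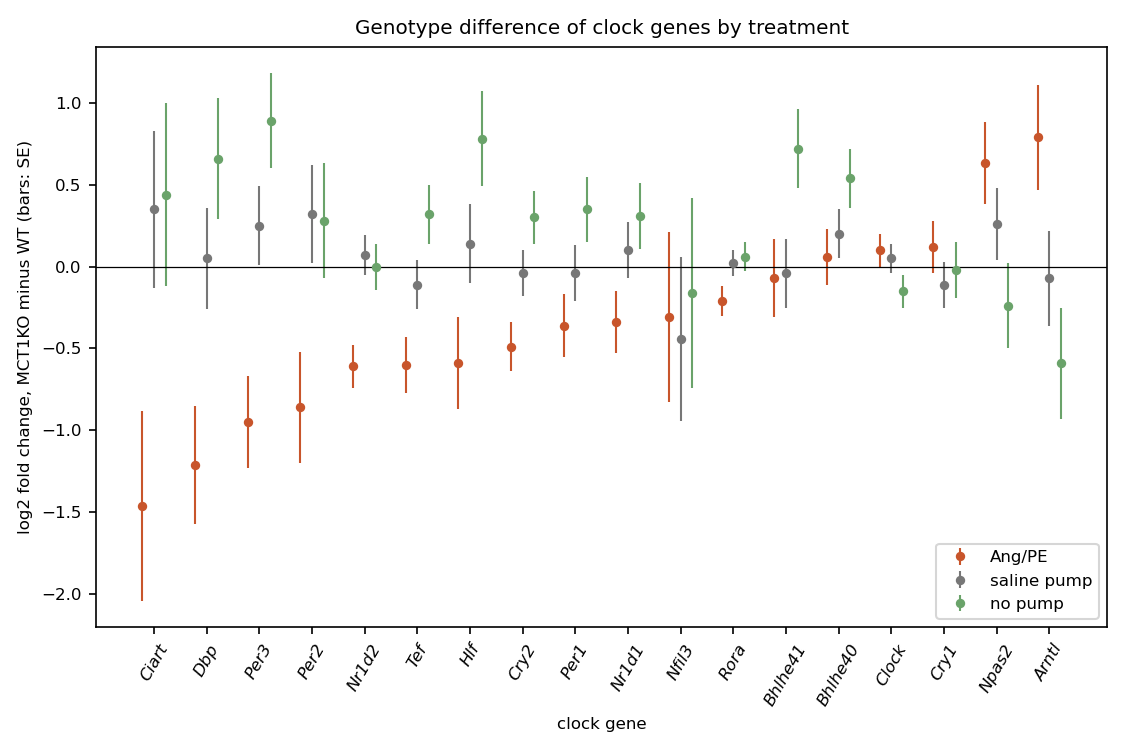
Log2 fold change between MCT1KO and WT hearts (y axis; bars are SE) for 18 clock genes (x axis), under Ang/PE, with a saline pump and without a pump. Ciart, Dbp, Per3 and Per2 had the lowest Ang/PE values, from -1.46 to -0.86, and their saline and no-pump values were above 0.

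The promoters of 3 clock genes are shown. They were picked among those lower in MCT1KO at an unadjusted p below 0.05, because they carry response elements by which the clock proteins are known to act. Each window runs from 250 bases before to 50 bases after the gene's start in RefSeq (mouse build GRCm38.p6), and entries were found for 16 of the 19 clock genes. The motifs below were searched on both strands: the E-box CACGTG, bound by BMAL1 with CLOCK or NPAS2; the D-box TTATGNAA, bound by DBP, TEF and HLF; and the RORE TAGGTCA, bound by ROR and REV-ERB receptors. Capitals mark the matches. Per3 lies at chr4:151044616-151044915 (minus strand), Ciart at chr3:95882179-95882478 (minus strand) and Tef at chr15:81802423-81802722 (plus strand), and each sequence is given on the gene's strand.
Per3: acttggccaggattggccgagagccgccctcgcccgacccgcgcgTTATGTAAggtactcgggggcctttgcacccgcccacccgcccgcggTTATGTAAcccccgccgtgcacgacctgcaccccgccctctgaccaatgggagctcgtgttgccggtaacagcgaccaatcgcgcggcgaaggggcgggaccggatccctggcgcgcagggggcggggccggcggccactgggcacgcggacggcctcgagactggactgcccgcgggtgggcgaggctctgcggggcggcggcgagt
Ciart: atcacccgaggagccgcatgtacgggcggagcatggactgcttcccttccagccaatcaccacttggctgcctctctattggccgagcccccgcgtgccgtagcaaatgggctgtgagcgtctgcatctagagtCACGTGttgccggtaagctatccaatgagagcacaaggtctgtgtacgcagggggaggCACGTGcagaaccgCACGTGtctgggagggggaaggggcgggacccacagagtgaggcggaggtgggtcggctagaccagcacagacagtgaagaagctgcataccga
Tef: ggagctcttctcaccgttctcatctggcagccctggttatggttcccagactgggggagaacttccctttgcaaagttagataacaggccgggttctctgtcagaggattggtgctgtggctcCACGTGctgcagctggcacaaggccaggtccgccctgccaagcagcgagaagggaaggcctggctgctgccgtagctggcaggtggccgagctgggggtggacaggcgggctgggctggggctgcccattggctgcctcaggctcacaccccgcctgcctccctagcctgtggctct

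Per3 held 2 D-boxes, Ciart 3 E-boxes and Tef 1 E-box. Over the 16 promoters found, 5 held the E-box, 2 the D-box and 1 the RORE, and 7 held at least 1 of them. Matches not shown were in Per1 (E-box and D-box), Cry1 and Bhlhe41 (E-box) and Nfil3 (RORE). Their log2 fold changes under Ang/PE were -0.36 (SE 0.19), 0.12 (SE 0.16), -0.07 (SE 0.24) and -0.31 (SE 0.52). None of these genes had an unadjusted p below 0.05, so a match did not go with a lower level throughout. Of all 32851 promoters of the same length, 7.15% held the E-box, 3.38% the D-box and 2.61% the RORE. Nr1d2, with the smallest p, and Dbp had no match in this window. These matches describe the letters and were not measured as bound sites.

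Genes of the fetal program had higher mean levels in MCT1KO hearts. Of 22 genes linked to hypertrophic growth, 21 had a positive log2 fold change, with a median of 0.43. At an unadjusted p below 0.05, 7 were higher, where 3.99% of the genes tested were. None was lower, and 0 passed adjustment. Acta1, the skeletal α-actin that the fetal heart expresses, was at 125, 271 and 301 CPM in WT and at 460.1, 1097, 485, 604 and 396 CPM in MCT1KO hearts. The groups did not overlap, and the log2 fold change was 1.39 (SE 0.65, adjusted p = 0.711).

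Myh7, the slow β-myosin heavy chain, was at 643, 356 and 1458 CPM in WT and at 937, 3865, 1435, 639 and 4667 CPM in MCT1KO hearts. Hearts 2 and 5 lay above every other heart and the rest overlapped, with a log2 fold change of 1.5 (SE 0.63). Nppa, the atrial natriuretic peptide, was at 157, 152 and 315 CPM in WT and 359, 5144, 313, 491 and 1759 CPM in MCT1KO hearts, and its log2 fold change of 2.96 (SE 1.34) again came with the highest values in hearts 2 and 5. Without heart 2 the value was 1.82 for Nppa, and without heart 5 it was 1.07 for Myh7. Nppb, its ventricular relative, did not follow: it was at 159, 229 and 855 CPM against 425, 805, 281, 388 and 441 CPM (0.18, SE 0.54). The highest Nppb level was in WT heart 3.

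More uniform across hearts was Myocd, which encodes the smooth and cardiac muscle coactivator myocardin. It was at 137, 134 and 159.6 CPM in WT and 217, 169.8, 216, 175 and 173 CPM in MCT1KO hearts (0.41, SE 0.16, no overlap). Gata4, a cardiac transcription factor of hypertrophic signalling, was at 107, 116 and 79.3 CPM against 109, 188, 168, 133 and 145 CPM (0.56, SE 0.19). Uchl1, a deubiquitinating enzyme, and Acta2, smooth muscle α-actin, had log2 fold changes of 0.92 (SE 0.33) and 1.11 (SE 0.43). The calcineurin target Rcan1 and the stretch-responsive Ankrd1 had log2 fold changes of 0.17 and 0.81, with unadjusted p-values above 0.05. The count of 7 became 2 without WT heart 1, 3 without WT heart 2 and 3 without MCT1KO heart 2. Without WT heart 3 it was 8, and the median was then 0.73. In saline hearts the same list had a median of -0.04 and in hearts without a pump of 0.05.

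**Figure D3:**
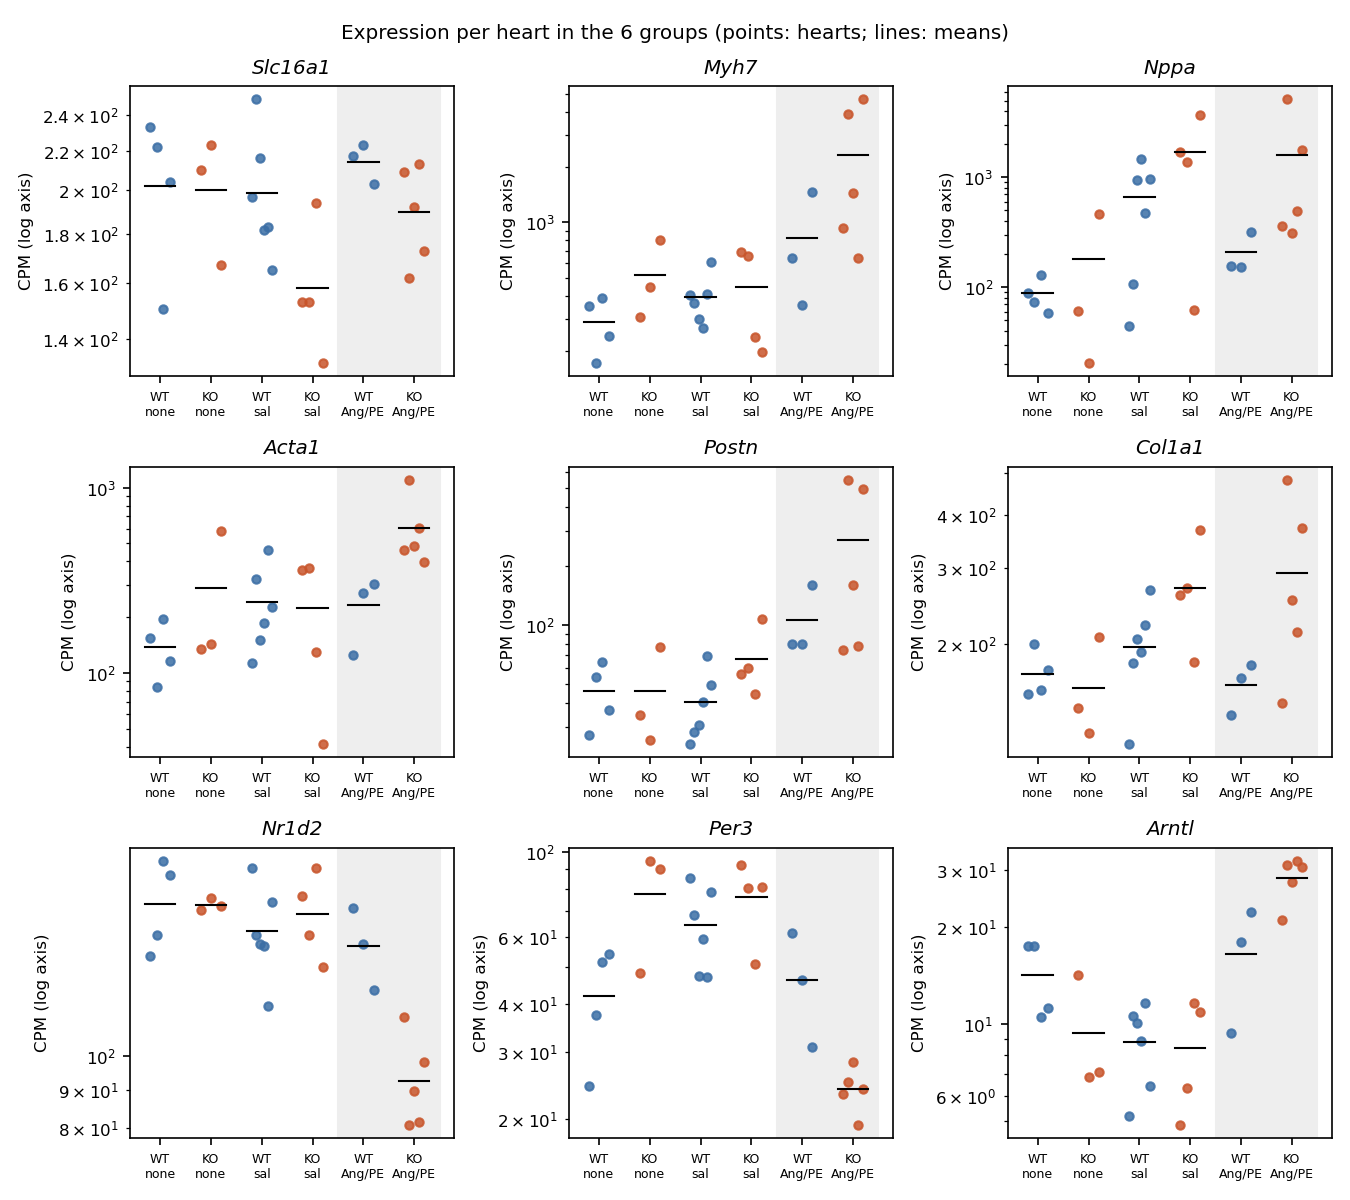
CPM (y axis, log scale) of 9 genes in each of the 25 hearts, by genotype and treatment (x axis; none, no pump; sal, saline); points are hearts, lines are group means and the Ang/PE groups are shaded. Slc16a1 overlaps between the genotypes under Ang/PE, Nr1d2 and Per3 are lower and Acta1 higher in all 5 MCT1KO hearts there, and Myh7, Nppa, Postn and Col1a1 are highest in 2 of the 5.

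Collagen genes were higher on average in MCT1KO hearts under Ang/PE. Of 21 collagen genes, 20 had a positive log2 fold change, with a median of 0.42. At an unadjusted p below 0.05, 11 were higher, where 3.99% of the genes tested were, and 0 passed adjustment. Col1a1, the main fibrillar collagen chain, was at 137, 167 and 179 CPM in WT and at 146, 481, 253, 213 and 372 CPM in MCT1KO hearts. MCT1KO heart 1 lay within the WT range and the other 4 above it, and the log2 fold change was 0.86 (SE 0.31). Col3a1, its partner in fibrils, was at 192, 309 and 299 CPM against 223, 778, 353, 306 and 617 CPM (0.77, SE 0.34). The basement-membrane collagen Col15a1 was at 142, 172 and 145 CPM against 171, 265, 182, 189 and 218 CPM (0.42, SE 0.15). Col12a1, which coats fibrils, was at 7.22 to 14.2 CPM in WT, at 88.3 and 79.2 CPM in MCT1KO hearts 2 and 5, and at 4.75 to 26.4 CPM in the other 3 (2.10, SE 0.89). Col22a1, called by DESeq2 (adjusted p = 0.00376) but not by edgeR (adjusted p = 0.692), was at 0.537, 0.349 and 0.786 CPM in WT and at 1.1, 12.3, 4.38, 0.897 and 10.6 CPM in MCT1KO hearts. Its groups did not overlap, but narrowly: WT heart 3 had 11 read counts, and MCT1KO hearts 1 and 4 had 12 each. MCT1KO hearts 2 and 5 were again highest.

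Among 39 further genes of matrix and fibroblast activation, the median log2 fold change was 0.53. At an unadjusted p below 0.05, 12 were higher and 1 lower, where 3.99% and 2.92% of the genes tested were. Postn, the matricellular protein of activated fibroblasts, was at 79.8, 79.4 and 159 CPM in WT and at 74, 548, 159, 77.9 and 492 CPM in MCT1KO hearts (1.35, SE 0.62). Thbs4, a thrombospondin of the loaded heart, was at 11.9, 7.76 and 33.4 CPM against 10.1, 167, 63.1, 18.2 and 181 CPM (2.32, SE 0.80). Hearts 2 and 5 were the highest for both genes, while MCT1KO hearts 1 and 4 lay within or below the WT range. MCT1KO heart 3 was level with WT heart 3 for Postn and above the WT range for Thbs4. Without MCT1KO heart 2 the log2 fold changes of Postn and Thbs4 were 0.93 and 1.96, and without heart 5 they were 1.02 and 1.88. Cthrc1, marking activated fibroblasts, Ccn5, a matricellular protein, and Meox1, a fibroblast transcription factor, had log2 fold changes of 2.78 (SE 0.95), 2.5 (SE 0.92) and 0.93 (SE 0.37). Cthrc1 was near the floor (mean log2 CPM -1.66 over all hearts fitted). It did not pass the low-count filter without MCT1KO heart 2, 3 or 5, so its place among the 12 depends on hearts where it was high. Fap, a fibroblast surface protease, had the opposite sign: 6.86, 6.64 and 7.58 CPM in WT and 3.93, 5.1, 5.25, 6.28 and 5.04 CPM in MCT1KO hearts (-0.45, SE 0.21, no overlap). Ccn2 (CTGF), a target of TGF-β signalling, ranged from 95.1 to 737 CPM in WT and from 112 to 709 CPM in MCT1KO hearts (0.29, SE 0.66).

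Both matrix counts moved with a few hearts. Of the 11 collagen genes higher at an unadjusted p below 0.05, the count became 3 without MCT1KO heart 2, 4 without MCT1KO heart 5, 2 without WT heart 1 and 6 without WT heart 2. The 12 further matrix genes became 3, 6, 3 and 7 in the same order. A fit of the 8 Ang/PE hearts alone gave 4 and 3. Adding offsets for GC content and length left 5 collagens and 11 further genes. The genotype difference also moved with GC content across genes (rank correlation 0.288 over 12815 genes, which are not independent), from a median of -0.064 in the lowest of 4 GC classes of equal size to 0.069 in the highest. The summed level of 8 fibroblast markers was 2458 to 2796 CPM in WT and 2025 to 3559 CPM in MCT1KO hearts, the extremes being heart 3 and heart 2. Of these 8 markers, 2 were higher at an unadjusted p below 0.05, both collagens, and the median was -0.04. The lineage marker Tcf21 was at 4.72 to 7.4 CPM in WT and 3.84 to 11.5 CPM in MCT1KO hearts. In whole hearts, fewer cells of a type and less RNA per cell cannot be told apart.

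**Figure D4:**
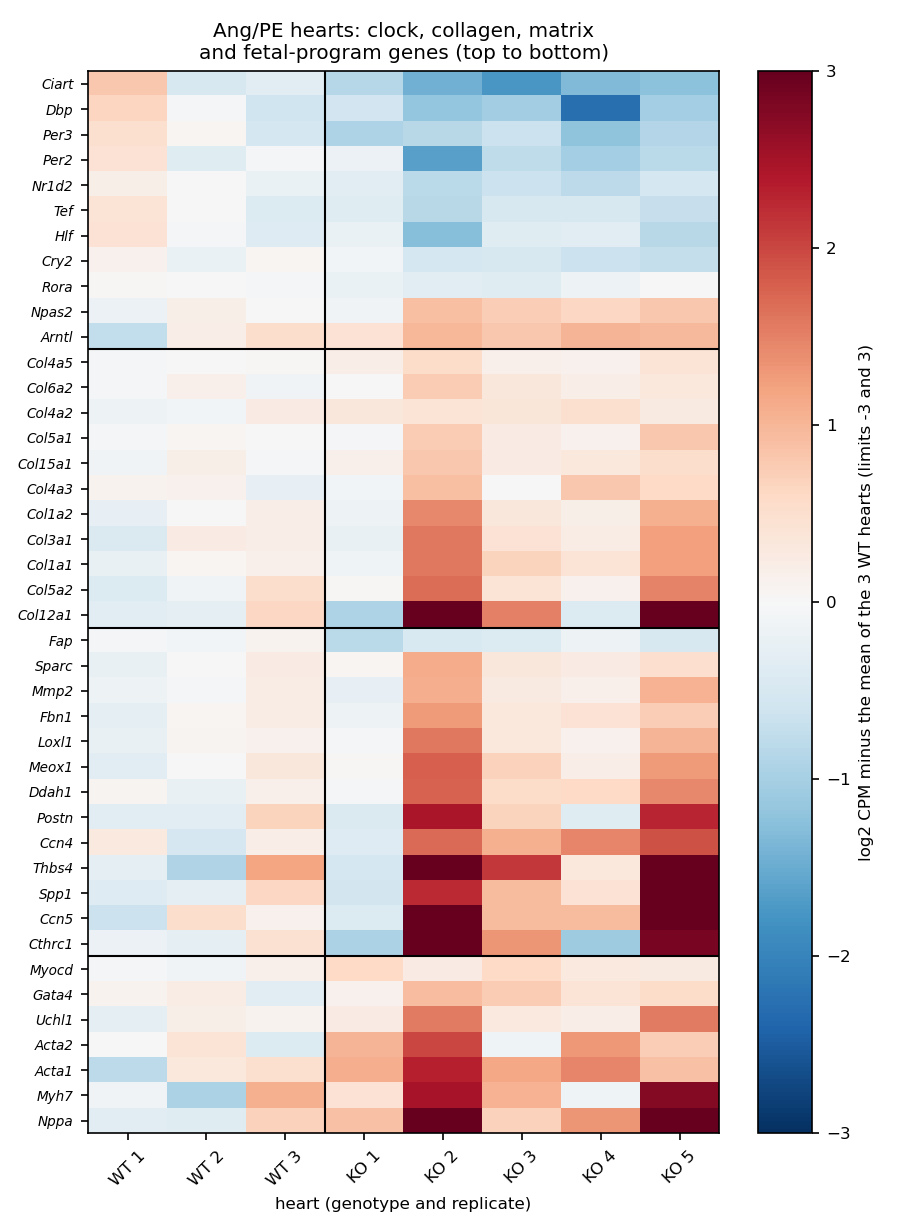
Log2 CPM of each Ang/PE heart minus the mean of the 3 WT hearts (colour, limited to -3 and 3) for the clock, collagen, other matrix and fetal-program genes with an unadjusted p below 0.05 (rows, black lines between lists). Columns are WT hearts 1 to 3 and MCT1KO hearts (KO) 1 to 5. The members were chosen by that p, MCT1KO hearts 2 and 5 have the highest values for Col1a1, Col3a1, Col12a1, Postn, Thbs4 and Cthrc1, and Fap is lower in every MCT1KO heart.

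Signalling genes upstream of matrix gave few differences. Of 25 genes of the TGF-β family and its signalling, 1 was higher and 2 lower at an unadjusted p below 0.05. These counts stand beside 3.99% higher and 2.92% lower over all genes tested. Without WT heart 3, 5 were higher, without MCT1KO heart 1 or 3, 3 were, and without MCT1KO heart 4, 2 were. The count of lower genes was 1 without WT heart 1 and otherwise 2 or 3. Smad2, a receptor-activated mediator of TGF-β, was at 35.8, 35.2 and 34.4 CPM in WT and 28.7, 29.8, 28.7, 28.3 and 30.6 CPM in MCT1KO hearts, a small difference without overlap (-0.27, SE 0.08, adjusted p = 0.692). Tgfbr3, the co-receptor betaglycan, also had no overlap, with a log2 fold change of -0.30 (SE 0.11). The stress cytokine Gdf15 was at 0.656, 1.82 and 1.5 CPM against 1.1, 16, 2.47, 2.77 and 11.4 CPM (2.38, SE 0.81), and its 2 highest values were those of hearts 2 and 5. The ligand Tgfb2 had a log2 fold change of 0.66 (adjusted p = 0.755). None of 30 genes of angiotensin and adrenergic signalling had an unadjusted p below 0.05.

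Immediate-early genes respond to stimuli within minutes. Their mean log2 CPM, relative to the mean of the 3 WT hearts, was -0.66, -0.29 and 0.95 in WT hearts and 0.82, 1.74, -0.17, 0.05 and -0.03 in MCT1KO hearts, so that 2 MCT1KO hearts and WT heart 3 stood above the rest. The median log2 fold change of the 23 genes was 0.36. At an unadjusted p below 0.05, 4 were higher, where 3.99% of the genes tested were. Egr1 was at 8.05, 10.6 and 52.7 CPM in WT and at 38.9, 432, 27.5, 53 and 36.9 CPM in MCT1KO hearts. Its log2 fold change of 2.31 became 0.73 without MCT1KO heart 2, and the list's count was then 0 and its median -0.03. The count was 0 without WT heart 1, 1 without WT heart 2 and 9 without WT heart 3. Leaving out MCT1KO heart 3 or 5 gave 6, and the fit of the 8 hearts alone gave 0.

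Genes of monocarboxylate transport and lactate use, the process the knockout addresses, showed few differences. Of 17 transporters and partners, 13 were expressed well enough to test. At an unadjusted p below 0.05, 1 was higher and 0 were lower, where 3.99% and 2.92% of the genes tested were. That gene was Slc16a6 (MCT7), a ketone-body exporter in liver, at 9.07, 11 and 9.15 CPM in WT and 13.4, 16, 16.6, 13.8 and 15 CPM in MCT1KO hearts. The groups did not overlap, and the log2 fold change was 0.62 (SE 0.19, adjusted p = 0.692). Its values in the other treatments were 0.01 in saline and -0.03 without a pump. Slc16a3 (MCT4), the exporter of glycolytic cells, was at 2.39 to 4.36 CPM in WT and 1.2 to 4.61 CPM in MCT1KO hearts. Slc16a7 (MCT2) was at 13.4 to 14.9 CPM and 12.5 to 20.9 CPM, and Bsg at 757 to 797 CPM and 536 to 836 CPM. Log2 fold changes were -0.05 (SE 0.35), 0.05 (SE 0.21) and -0.02 (SE 0.17) in that order, with overlap each time.

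None of 23 genes of lactate and pyruvate metabolism had an unadjusted p below 0.05 (median -0.02). Ldha and Ldhb, the subunits of lactate dehydrogenase, had log2 fold changes of -0.02 (SE 0.11) and -0.05 (SE 0.19). For the mitochondrial pyruvate carrier subunits Mpc1 and Mpc2 the values were -0.09 (SE 0.16) and -0.17 (SE 0.16), and for the pyruvate dehydrogenase subunit Pdha1 -0.10 (SE 0.12). Pdk4, which inhibits pyruvate dehydrogenase, was at 454, 376 and 1681 CPM in WT and at 694, 248, 524, 547 and 415 CPM in MCT1KO hearts. Its log2 fold change of -0.79 (SE 0.52) became 0.21 without WT heart 3. Of 31 glycolysis genes, 2 were higher at an unadjusted p below 0.05, where 3.99% of the genes tested were. Hk1, a hexokinase, was at 238, 233 and 178 CPM in WT and 239, 356, 252, 295 and 324 CPM in MCT1KO hearts (0.44, SE 0.17), without overlap by 1 CPM. Pgam1, a phosphoglycerate mutase, had a log2 fold change of 0.35 (SE 0.15). The glycolysis count was 1 without WT heart 2 or 3 or MCT1KO heart 2.

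Genes of oxidation had low negative values with few small p-values. Of 32 fatty acid oxidation genes, 28 had a negative log2 fold change (median -0.18). At an unadjusted p below 0.05, 1 was lower, where 2.92% of the genes tested were. That gene was Acaa2, a thiolase, at 561, 529.6 and 506 CPM in WT and 519, 275, 417, 443 and 300 CPM in MCT1KO hearts (-0.45, SE 0.17). Without MCT1KO heart 1, 5 genes were lower and the median was -0.28, without WT heart 3, 2 were, and without WT heart 1, 0 were. In saline hearts the same list had a median of -0.42 and 26 of 32 genes lower at an unadjusted p below 0.05, where 8.62% of the genes tested were lower. Of 9 fat markers, 8 were higher in MCT1KO in that contrast at an unadjusted p below 0.05, where 8.43% of the genes tested were higher. The fat markers summed to 182 to 260.4 CPM in WT and 223 to 2091 CPM in MCT1KO saline hearts. Atrial markers summed to 62.3 to 3037 CPM and 83.9 to 8137 CPM there. Their part in the saline values was not tested. For Ang/PE minus saline, 3 of the 32 genes were higher and 1 lower, near the 7.48% and 6.05% of all genes tested. Of 73 nuclear genes of the respiratory chain, 67 had a negative value (median -0.11) and 0 had an unadjusted p below 0.05, as had 0 of 24 tricarboxylic acid cycle genes and 0 of 6 ketone body genes. Of the 13 protein-coding mitochondrial genes, 12 had a negative value, with a median of -0.30 that became -0.09 with GC and length offsets. mt-Nd4l, a subunit of complex I, was the member lower at an unadjusted p below 0.05 (-0.87, SE 0.31), at 43.9, 16.9 and 19.5 CPM in WT and 17.9, 10.5, 16.3, 14.7 and 14.2 CPM in MCT1KO hearts. WT heart 1 was far above the other 7. Without it 0 members were lower, and without MCT1KO heart 1, 3 were. Among 23 metabolic regulators, Klf15, a glucocorticoid-induced regulator of lipid use, was at 100.4, 86.9 and 64.7 CPM in WT and 64.1, 34.6, 61.3, 60.3 and 55.8 CPM in MCT1KO hearts (-0.61, SE 0.18, no overlap). Ppargc1a and Ppara both had a log2 fold change of 0.04.

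**Figure D5:**
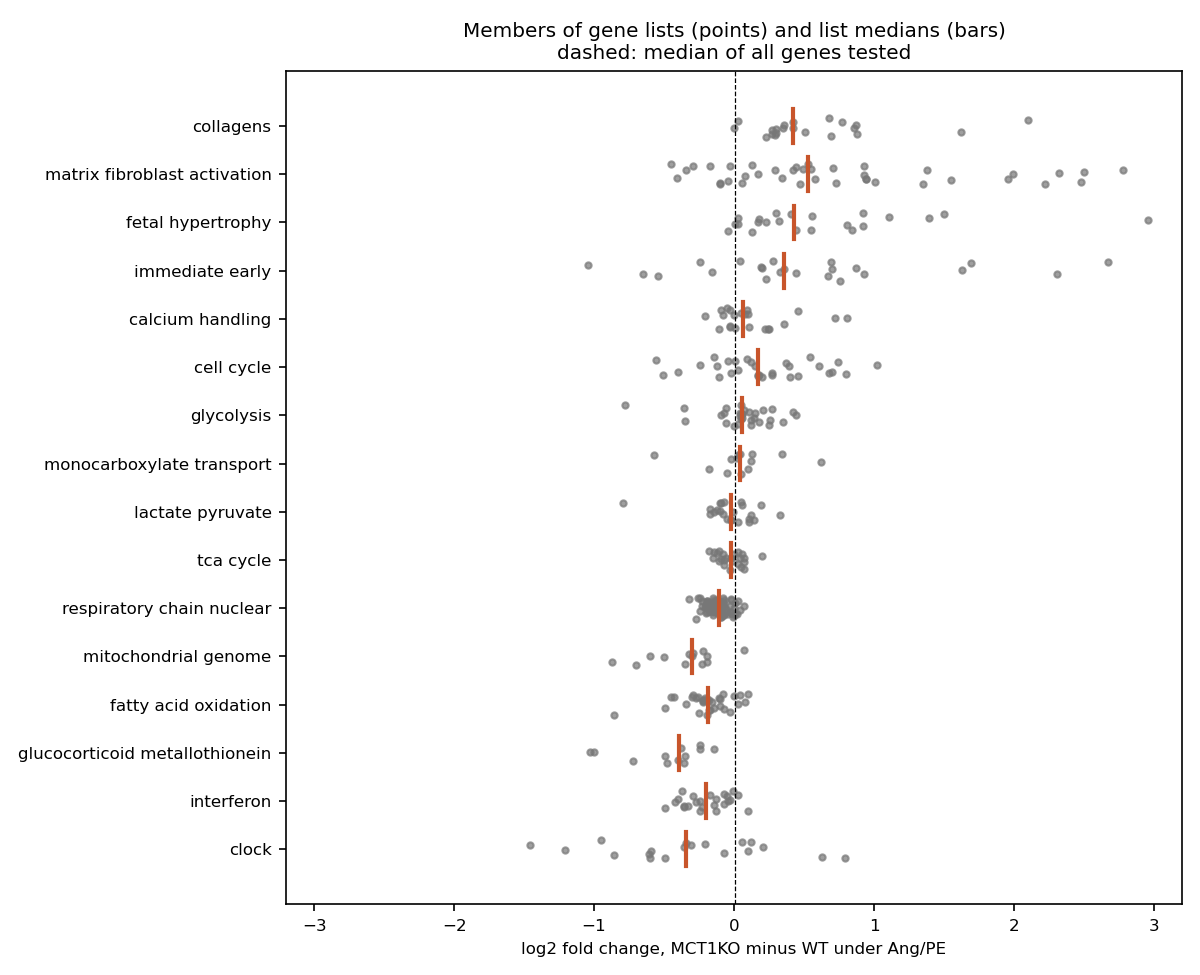
Log2 fold change between MCT1KO and WT hearts under Ang/PE (x axis) for the tested members of 16 gene lists (rows); points are genes, orange bars list medians, and the dashed line the median of all genes tested. The medians of matrix and fibroblast activation (0.53), fetal hypertrophy (0.43) and collagens (0.42) lie on the right and those of the clock (-0.34) and of glucocorticoid and metallothionein genes (-0.39) on the left.

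Contractile and calcium-handling genes gave small differences. Casq2, the calcium buffer of the sarcoplasmic reticulum, was at 615, 653 and 571 CPM in WT and 751, 799, 755, 783 and 833 CPM in MCT1KO hearts (0.36, SE 0.13, no overlap). Slc8a1, the sodium-calcium exchanger, was at 877, 871 and 884 CPM against 1062, 949.9, 931, 1101 and 1146 CPM (0.24, SE 0.11, no overlap). These were the 2 of 22 calcium-handling genes with an unadjusted p below 0.05, and Atp2a2 (SERCA2) and Pln (phospholamban) had log2 fold changes of -0.05 (SE 0.18) and -0.11 (SE 0.21). Of 20 sarcomere genes, Ldb3, a Z-disc protein, was higher (0.31, SE 0.14) and Tcap, the titin cap, lower (-0.45, SE 0.16) at that level. Both counts stand beside 3.99% higher and 2.92% lower over all genes tested. The calcium-handling count was 1 without any of the 3 WT hearts or MCT1KO heart 1 or 4. The higher sarcomere count was 3 without MCT1KO heart 2, 1 without MCT1KO heart 5 and 0 without any other heart, and the lower count was 0 without WT heart 1. Myh6, the adult α-myosin heavy chain, was at 21361 to 28577 CPM in WT and 21619.8 to 31484 CPM in MCT1KO hearts (0.10, SE 0.19).

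The 10 genes higher in MCT1KO with the smallest p among those without overlap were Ankrd45, Cited4, Btbd8, Ccnd2, Abat, Utp23, Mgat5, Plekho1, Zfhx2 and Sardh, with log2 fold changes of 0.43 to 1.44. Ankrd45 was at 1.67, 1.68 and 1.64 CPM in WT and 2.1, 5.1, 3.9, 5.08 and 6.24 CPM in MCT1KO hearts (1.44, SE 0.33). Cited4, a transcriptional coregulator known from exercise-induced heart growth, was at 12.5, 10.2 and 8.93 CPM against 12.7, 25.6, 22.3, 18 and 14.6 CPM (0.82, SE 0.20). Ccnd2, a cyclin of the G1 phase, was at 201, 210.2 and 185 CPM against 265, 489, 281, 279 and 343 CPM (0.74, SE 0.19). Abat, which degrades the transmitter GABA, was at 23, 18.9 and 27.6 CPM against 34.6, 43.3, 41.8, 49.0 and 45.3 CPM (0.89, SE 0.23). Heart 2 was the highest for Cited4 and Ccnd2 but not for Ankrd45 or Abat. Of 31 cell cycle genes, Ccnd2, the replication helicase subunit Mcm2 (0.54, SE 0.21) and the ribonucleotide reductase subunit Rrm2 (1.02, SE 0.41) were higher at an unadjusted p below 0.05, and none was lower. Over all genes tested, 3.99% were higher and 2.92% lower at that level. Leaving out MCT1KO heart 2 gave 1 higher cell cycle gene. Leaving out MCT1KO heart 5 gave 2 and moved the median from 0.17 to -0.03, and leaving out any of the 3 WT hearts also gave 2.

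On the lower side, the 10 genes were Nr1d2, N4bp2os, Nsmaf, Cd46, Slco5a1, Slc9a2, Ccdc71l, Smad2, Ramp2 and Mysm1, with log2 fold changes of -0.83 to -0.27. Cd46, a complement regulator, was at 5.25, 6.15 and 6.29 CPM in WT and 4.02, 4.19, 3.58, 3.89 and 3.72 CPM in MCT1KO hearts (-0.60, SE 0.16). Ramp2, a co-receptor for adrenomedullin, was at 38.2, 31.1 and 31.2 CPM against 25.6, 16.7, 24, 25.2 and 21 CPM (-0.58, SE 0.17). Its log2 fold change was -0.60 in hearts without a pump and 0.16 in saline hearts. Slc9a2, a sodium-proton exchanger, had a log2 fold change of -0.78 (SE 0.22) and the ceramide-pathway adaptor Nsmaf one of -0.28 (SE 0.07). N4bp2os is an antisense gene (-0.83, SE 0.20), and whether counting used strand is not given in the sources used here, so its reads cannot be told apart from those of its sense partner. The adjusted p of each of these 20 genes was 0.692.

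For the test of whether the genotype difference under Ang/PE differed from that with saline, 0 genes passed adjustment (smallest adjusted p 0.273), and 2392 (13.5%) had an unadjusted p below 0.05. The genes with the smallest p were Dcaf5, Htatip2 and Cyp51 on the higher side and N4bp2os, Max and Ftx on the lower side. Dcaf5, a substrate receptor of a ubiquitin ligase, had log2 fold changes of 0.33 under Ang/PE and -0.36 with saline, a difference of 0.69. Cyp51, of cholesterol synthesis, had 0.44 and -0.39. Max, the partner of MYC, had -0.36 and 0.33. Ftx lies in the X-inactivation centre, and the groups differed in sex. With Xist as covariate, 0 genes passed adjustment in either difference between treatments, and 2194 (from saline) and 879 (from no pump) had an unadjusted p below 0.05. DESeq2 called 4 genes in this difference, Dcaf5, Sptb, Ube2o and Park7, with adjusted p-values of 0.00154 to 0.0424. In edgeR their adjusted p-values were 0.273 for Dcaf5 and 0.294 for the others. Against hearts without a pump, 960 genes (5.43%) had an unadjusted p below 0.05, and the smallest adjusted p was 0.89. Besides Per3, the genes with the smallest p were Dstn, Tgm2 and Ncbp2 (log2 differences 0.72, 0.58 and 0.48) and Abcb1a and Syne2 (-0.64 and -0.81). Over 11613 genes with a mean log2 CPM above 1, the genotype differences under Ang/PE had a rank correlation of -0.088 with those in saline and of 0.323 with those without a pump. Those contrasts share no heart, and genes are not independent. The genotype differences also moved with GC content, with rank correlations of 0.288 under Ang/PE, -0.222 with saline and 0.098 without a pump. With GC and length offsets, 2043 genes (from saline) and 969 (from no pump) had an unadjusted p below 0.05 in edgeR. The part of GC content in the rank correlations between treatments was not tested.

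Markers of other cell types were summed over each list. Ventricular cardiomyocyte markers were at 118346, 108273 and 104154 CPM in WT and 137006, 106332, 144539, 144951 and 125038 CPM in MCT1KO hearts. MCT1KO hearts 1, 3, 4 and 5 lay above every WT heart, and heart 2 lay within the WT range. Of these 8 markers, 0 had an unadjusted p below 0.05, and the median log2 fold change was 0.10. The atrial light chain Myl7 was at 0 to 0.279 CPM, and the fat markers Ucp1 and Adipoq at 0 to 0.183 CPM, in all 8 hearts. Of 7 atrial markers, 5 had a positive log2 fold change (median 0.85). Nppa was higher at an unadjusted p below 0.05 and the other 6 were not. The atrial markers summed to 176 to 346 CPM in WT and 339 to 5214 CPM in MCT1KO hearts. Nppa alone was at 152 to 315 CPM and 313 to 5144 CPM. Endothelial markers summed to 1112 to 1286 CPM in WT and 1005 to 1264 CPM in MCT1KO hearts. Smooth muscle and pericyte markers summed to 1571 to 1659 CPM in WT and 1375 to 1899.8 CPM in MCT1KO hearts. Of these 9 markers, 7 had a positive and 2 a negative log2 fold change (median 0.29). At an unadjusted p below 0.05, 1 was higher, where 3.99% of the genes tested were. Leukocyte markers summed to 291 to 432 CPM in WT and 272 to 497 CPM in MCT1KO hearts. Red blood cell genes summed to 509 to 1774 CPM and 342 to 2551 CPM.

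Mesothelial markers, of the epicardial lining, summed to 27, 21.2 and 31.7 CPM in WT and 13.9, 16.8, 12.9, 11.1 and 6.48 CPM in MCT1KO hearts, without overlap. Upk3b was at 7.57, 3.49 and 9.15 CPM in WT and 0.274, 2.37, 0.637, 0.0748 and 0.12 CPM in MCT1KO hearts. Msln was at 5.73, 2.03 and 6.5 CPM against 0.183, 2.51, 0.159, 0.0748 and 0.12 CPM, and Krt19 was at most 1.01 CPM. Of the 6 markers, 3 (Krt19, Upk3b and Msln) were lower at an unadjusted p below 0.05, where 2.92% of the genes tested were. This count was 0 without WT heart 1 or 3 or without MCT1KO heart 1, 4 or 5, 1 without MCT1KO heart 3, and 5 without MCT1KO heart 2. Wt1, which the epicardium and other cells express, was at 8.89 to 14.3 CPM and 5.94 to 13.4 CPM. The part of the lining in the other differences was not tested.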

How the data were processed

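RNA from whole hearts was rRNA-depleted and made into stranded libraries, per the labels' protocols. The authors deposited 1 table of raw read counts per gene. The submitters' processing notes name cutadapt 1.16, STAR 2.7.9a, featureCounts 1.6.3, DESeq2 1.42.1 and the build GRCm39 (mm39); their settings, the annotation release and the use of strand are not given in the sources used here. Each of the 25 columns was matched to its sample by title. Symbols, GC content and length came from GENCODE M21 (GRCm38), and promoter sequences from RefSeq (GRCm38.p6).

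Counts were tested with edgeR 4.0.16 (R 4.3.3): filterByExpr by group left 17682 of 56941 genes, TMM factors scaled the libraries, and glmQLFit (robust) fitted the 6 groups over all 25 hearts (19 residual degrees of freedom; common biological coefficient of variation 0.196). Two-sided glmQLFTest p-values were adjusted by Benjamini-Hochberg over all genes tested, with a threshold of 0.05. CPM uses TMM-scaled libraries; log2 CPM adds a prior count of 2. The fit was also run on simulated counts. These had the same dispersion for every gene and no hearts that stood apart, unlike the data. The simulation therefore cannot show how the test performs on these hearts. Replicate libraries differed by more than counting noise (chi-square per degree of freedom at least 7.9).

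The genes named by rule were Slc16a1, a panel of 34 genes, the 10 per direction with the smallest p among non-overlapping genes with a symbol and a mean log2 CPM above 1, the 3 per direction in each difference between treatments, and the 2 of smallest p in each list. Further genes were named after their values were seen. Some genes counted in the lists are not reported here by name. The members, lists and tests were chosen with earlier results of these data known. Other settings tried were scaling by RLE, DESeq2 1.42.0 in place of edgeR, all genes kept whatever their counts, a fit of the 8 Ang/PE hearts (or the 2 treatments compared) alone, a block for the replicate number, quasi-likelihood without robust shrinkage, removal of mitochondrially encoded genes, a covariate for Xist, offsets for GC and length (mgcv 1.9.3) alone or with the block, and removal of each heart in turn.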

Additional observations from a re-analysis of the deposited data

Results flagged for a closer look

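Among the 5 MCT1KO hearts under Ang/PE, each of 165 measures (log2 CPM of the genes named, depth and mitochondrial share) was examined for a heart far from the other 4 by Dixon's ratio, with a limit of 0.71. Of these, 15 passed. For independent measures chosen without regard to their values, about 1 in 20, or 8.2, would pass. These measures are not independent, and many genes were named for their values in the same hearts. The count of 15 therefore cannot be judged against 8.2. MCT1KO heart 2 accounted for 8, heart 5 for 4, heart 1 for 2, heart 4 for 1 and heart 3 for 0.

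Heart 2 lay above the others for the immediate-early genes Egr1 (log2 CPM 8.76, others 4.79 to 5.73), Egr2 (5.84, others 2.22 to 2.7) and Egr3 (4.5, others 1.54 to 1.67). It was also highest for the cholesterol-synthesis gene Cyp51 (4.43, others 3.79 to 3.96) and the mesothelial marker Msln (1.40, others -2.39 to -1.74). It lay below the others for the metabolic regulator Klf15 (5.12, others 5.81 to 6.00), for Ccdc71l (3.71, others 3.90 to 3.97) and for titin, Ttn (15.78, others 16.21 to 16.38).

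Heart 5 lay below the others for the MCT1 chaperone Bsg (9.07, others 9.65 to 9.71) and the pyruvate carrier Mpc1 (6.80, others 7.09 to 7.19). It lay above them for the Y-linked Ddx3y (6.06) and Uty (5.43), which were at -3.1 in the other 4 hearts, the value that no count gives. Heart 1 was the highest for Myc (4.26, others 1.80 to 2.46) and the lowest for the clock activator Npas2 (2.93, others 3.64 to 3.93). Heart 4 was the highest for Slc16a7, which encodes MCT2 (4.39, others 3.66 to 3.87).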

How the results depend on the processing

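Every one of the 18 alternatives except DESeq2 gave 0 genes at an adjusted p below 0.05 in each of the 3 comparisons. DESeq2 gave 4 genes under Ang/PE, 4 for the difference from saline and 2 for the difference from no pump. Without the low-count filter the unadjusted count for the difference from no pump was 1452, against 960. The unadjusted Ang/PE count ranged from 854 without MCT1KO heart 2 to 1763 without MCT1KO heart 1. The replicate numbers did not pair the hearts (mean correlation of same-numbered hearts -0.157 over 3 pairs; 0 of the WT hearts correlated best with its own number). With the replicate number as a block, 0 genes were called in each comparison, the unadjusted counts were 1245, 3301 and 1134, and Slc16a1 had a log2 fold change of -0.11 (-0.05 with GC and length offsets also). Of 2764 log2 fold changes of named genes under alternatives, 2712 kept their sign. Those that did not belonged to 20 genes, none with an adjusted p below 0.05 in edgeR, and the cause was not tested.

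With the block, log2 fold changes were 0.11 for Bsg, 0.04 for Ldha, 0.06 for Ldhb and 0.05 for Atp2a2. With the block and the offsets they were 0.05 for Bsg, 0.01 for Ldha, 0.04 for Ldhb, 0.0023 for Mpc1, 3e-04 for Pdha1, 0.03 for Atp2a2 and 0.14 for Pln. With the offsets alone they were -0.03 for Slc2a4, -0.0028 for Myh6 and 0.02 for Pln, and with Xist as covariate 0.04 for Slc16a3 and 0.02 for Bsg. Leaving out each heart in turn gave ranges of -0.07 to 0.03 for Ldha, -0.11 to 0.02 for Ldhb, -0.07 to 0.08 for Bsg, -0.24 to 0.18 for Slc16a3, -0.11 to 0.11 for Slc16a7 and -0.14 to 0.03 for Atp2a2. The ranges were -0.11 to 0.13 for Slc2a4, -0.05 to 0.23 for Hk2, -0.14 to 0.23 for Ppargc1a, -0.18 to 0.21 for Ppara, -0.03 to 0.18 for Myh6 and -0.14 to 0.005 for Pecam1. Wider ranges were seen for Nppb (-0.21 to 1.26), Rcan1 (-0.23 to 1.49), Ccn2 (-0.15 to 1.83), Pdk4 (-1.14 to 0.21) and Myc (-1.71 to 0.53), in which WT heart 3 had the highest level. The clock median stayed between -0.24 and -0.49 over the alternatives. With 3 and 5 hearts and this spread, a gene without a call is not shown to be alike in the genotypes.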

Other observations

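Groups not described above had few members with small p-values under Ang/PE, and 0 passed adjustment. Their counts stand beside 3.99% higher and 2.92% lower over all genes tested at an unadjusted p below 0.05. Of 24 interferon-response genes, 22 had a negative log2 fold change (median -0.20) and 2 were lower at an unadjusted p below 0.05. Without WT heart 3 the median was -0.04 and 0 were lower. The count was 4 without WT heart 1, 3 without WT heart 2 or MCT1KO heart 5, and 1 without MCT1KO heart 1, 2 or 3. The proapoptotic Xaf1 was at 10.3, 10.5 and 13.2 CPM in WT and 8.23, 6.7, 10.3, 9.79 and 9.19 CPM in MCT1KO hearts (-0.36, SE 0.15). The RNA sensor Ifih1 had a log2 fold change of -0.23 (SE 0.11). All 12 glucocorticoid and metallothionein genes had negative values (median -0.39), and 2 were lower at an unadjusted p below 0.05. Their mean log2 CPM, relative to the mean of the 3 WT hearts, was 0.38 in MCT1KO heart 1, -0.97 to -0.4 in the other MCT1KO hearts, and -0.3, -0.2 and 0.5 in WT hearts. Without MCT1KO heart 1, 5 were lower with a median of -0.59. The count was 3 without WT heart 2 and 1 without WT heart 3 or MCT1KO heart 2 or 3. Klf9, a glucocorticoid-induced factor, was at 240.3, 228 and 246 CPM in WT and 241, 109, 185, 187 and 182 CPM in MCT1KO hearts (-0.40, SE 0.17). Lcn2, an iron-sequestering lipocalin, had a log2 fold change of -1.03 (SE 0.42). Fkbp5, a further glucocorticoid target, ranged from 85 to 208 CPM in WT and from 16.9 to 183 CPM in MCT1KO hearts, with the lowest value in heart 2.

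Of 16 ubiquitin and atrophy genes, 2 were higher (Mdm2 and Trim55) and 3 lower (Rnf144b, Cblb and Foxo3) at an unadjusted p below 0.05, with log2 fold changes of -0.37 to 0.25. The lower count was 0 without MCT1KO heart 2 and 1 without WT heart 1, and the higher count was 0 without WT heart 1 or 2 or MCT1KO heart 1, 3 or 4, and 1 without WT heart 3 or MCT1KO heart 5. Of 24 stress-response genes, Gdf15 was higher and Trib3, a pseudokinase, lower at that level (-0.69, SE 0.25). Without WT heart 3, 7 were higher and 2 lower, and the median went from -0.07 to 0.27. The higher count was 2 without MCT1KO heart 3, and the lower count 2 without WT heart 1 and 0 without WT heart 2. Of 17 hypoxia genes, P4ha1, a collagen prolyl hydroxylase subunit, was higher (0.26, SE 0.11) and Ndrg1 lower (-0.35, SE 0.14). The higher hypoxia count was 0 without WT heart 1 or MCT1KO heart 1, 2 or 5 and 2 without WT heart 3, and the lower count 0 without WT heart 3 and 2 without MCT1KO heart 5. None of 22 antioxidant genes and 0 of 76 ribosomal protein genes had an unadjusted p below 0.05. Without WT heart 3, 3 antioxidant genes were higher, and without MCT1KO heart 4, 1 was, while 1 was lower without MCT1KO heart 1. Without MCT1KO heart 2, 17 ribosomal protein genes were lower, and 4 and 3 were without WT hearts 1 and 2. In hearts without a pump, 74 of the 76 ribosomal protein genes were lower in MCT1KO at that level (median -0.48, against -0.15 under Ang/PE), where 6.74% of the genes tested were lower.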
